A study of Mus musculus with 2 samples.

Results

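The members are the 68 mouse genes whose symbol begins with Eif or Eef followed by a number, out of the 32285 genes listed in the files. There were 54 Eif genes and 14 Eef genes, and Eif2s3x and Eif2s3y, the X- and Y-linked genes of eIF2 gamma, were left out by the rule. The rule used symbols and no measured value. The symbols hold more than the factors themselves. Among them are the 4 kinases of eIF2 alpha (Eif2ak genes), the binding proteins that block eIF4E (Eif4ebp genes), the eIF4E transporter Eif4enif1, the kinase of eEF2 (Eef2k), 6 methyltransferases of eEF1A and eEF2, and the exon junction helicase Eif4a3. Of the 68 members, 65 had 100 or more UMIs (unique molecular identifiers, the counted molecules) over both libraries. Eef1akmt3 had 4 and 17 UMIs, and Eif4e1b and Eif2c5 had 0 in each library.

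The samples were whole spinal cords of FVB mice at postnatal day 4, dissociated and measured by droplet single-cell RNA sequencing of transcript 3′ ends. The model is the severe Taiwanese mouse of spinal muscular atrophy (SMA), in which mouse Smn is lost and a human SMN2 transgene gives a small amount of SMN protein. The SMA group was mSmn-/-, hSMN22tg/0 and the control group (Con) was the heterozygote mSmn+/-, hSMN22tg/0, so both groups carried the human transgene and a null Smn allele. Each group was 1 library of pooled mice of the same litter, so a difference between groups has no replicate check, no p-value was computed, and every interval given here covers counting error at the 95% level only.

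Translation begins when eIF2 brings the initiator tRNA to the small ribosomal subunit, which eIF3, eIF1, eIF1A and eIF5 hold in a state that can read the message. The eIF4 proteins bind the cap at the 5′ end and unwind the leader, and eIF2B recharges eIF2 after each round. In elongation eEF1A delivers aminoacyl-tRNAs, the eEF1B complex recharges eEF1A, eEF2 moves the ribosome by a codon, and eIF5A helps at difficult codon pairs. Many messages for elongation factors and ribosomal proteins begin with a 5′ terminal oligopyrimidine run (TOP) that ties their translation to the growth kinase complex mTORC1. The cells that make myelin and those that divide are known for high protein synthesis.

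The start sites of members known from the TOP literature were read from RefSeq (GRCm38.p6) to show what these messages begin with. Each window holds 15 bases before the annotated start and 15 from it, and capitals mark a C at the start followed by 4 or more C or T bases.
Eif3f, chr7:108934400-108934429, plus strand: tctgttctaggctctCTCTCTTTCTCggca
Eef1a1, chr9:78481710-78481739, minus strand: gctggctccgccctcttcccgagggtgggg
Eef2, chr10:81176616-81176645, plus strand: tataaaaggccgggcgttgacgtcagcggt
The Eif3f window held a C at the annotated start followed by 10 pyrimidines, and the other windows shown held no run at that base. Of the 5 known TOP members with a listed start, 1 held the run, and Eef1b2 and Eif4b, not shown, did not. Starts were listed for 52 of the 68 members, and 2 of them (3.85%), Eif3f and Eif2c5, which is annotated as a lincRNA, held the run, against 3.01% of 27025 genes and 20.3% of 64 ribosomal protein genes. The letters describe these windows at these annotated starts and nothing further.

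There were 26921 barcodes with 85872075 UMIs under the SMA label and 25419 with 97894084 under the Con label. Of these barcodes, 8163 were listed in both libraries. Shared barcodes kept in the SMA-labelled library had a median of 1331 UMIs, against 7028 in the Con-labelled one, and Xist stood at 537 CPM (UMIs per 1000000 UMIs) in them against 1.58 CPM in the SMA barcodes that were not shared. The shared SMA barcodes were therefore left out, which left 6787 SMA-labelled cells and 8916 Con-labelled cells after filtering, with medians of 6109 and 6232 UMIs. The remaining SMA-labelled cells had 98.1 CPM of Y-linked genes, and the Con-labelled cells had 616 CPM of Xist and 41.8 CPM of Y-linked genes, so the libraries also differed in genes that mark sex. Smn1, the targeted gene, stood at 52.5 CPM (labelled SMA) and 51.4 CPM (labelled Con) outside the erythroid-like class (log2 ratio 0.03, interval -0.06 to 0.12), so it did not set the labels apart, and groups are given here as the labels name them. Whether these 3′ tags lie in the part of Smn1 that the null allele removes was not examined. Haemoglobin took 1.24% and 2.08% of UMIs outside red cells.

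Cells were grouped by clustering that left the members out and named by markers, as 13 classes. The shared SMA barcodes took part in this clustering and naming, and were left out of the counts. The classes were astrocyte-, oligodendrocyte precursor (OPC)-, committed precursor (COP)-, oligodendrocyte-, Schwann-, microglia-, macrophage-, endothelial-, mural-, fibroblast-, ependymal-, neuron- and erythroid-like. From 7 of 10 markers in the OPC-like class to all markers in the endothelial-, mural-, fibroblast-, ependymal- and macrophage-like classes were highest in their own class in both libraries. Clusters led by cell cycle or histone genes were placed in the astrocyte- and OPC-like classes through detected markers alone. The 11 classes with 50 or more cells in each library were compared, and the macrophage-like (30 and 60 cells) and neuron-like (44 and 26 cells) classes are given as levels.

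The members together took a smaller share of UMIs in the library labelled SMA in all 11 classes compared, though not under every setting. The log2 ratio of the erythroid-like class turned to 0.11 with the shared barcodes kept and to 0.06 at a finer clustering (Louvain resolution 2). With a mitochondrial limit of 5%, astrocyte-like cells turned to 0.02 and endothelial-like cells to 0.01, and microglia-like cells stood at -0.00. OPC-like (-0.14), COP-like (-0.18) and erythroid-like cells (-0.14) stayed lower at that limit, and the other classes were not compared. Summed over the named cells other than erythroid-like ones, elongation factor genes, Eef1a1 above all, carried most of the difference, which was not so in every class, while the summed share of ribosomal protein genes, which make up the machine these factors serve, stood level or higher in the same cells. Over all named cells other than erythroid-like ones the members took 1.35% of UMIs in the SMA-labelled library and 1.54% in the Con-labelled library, a log2 ratio of -0.19 (interval -0.19 to -0.18). Such sums, here and below, also carry the cell makeup of each library, which was not held equal. Cells labelled SMA and Con numbered 64 and 600 in the fibroblast-like, 298 and 686 in the COP-like, 93 and 228 in the Schwann-like and 386 and 153 in the ependymal-like class. In the Con-labelled library these classes had member shares of 1.79%, 1.85%, 2.04% and 1.23%. How much of a sum comes from makeup was not tested. By class the log2 ratio ran from -0.22 in mural- and fibroblast-like cells to -0.11 in astrocyte-, oligodendrocyte- and ependymal-like cells. Of the classes given as levels, neuron-like cells stood at -0.12 and macrophage-like cells went the other way, with 1.44% and 1.38% (log2 0.06, interval 0.01 to 0.12). The 14 Eef genes took 0.498% and 0.632% (log2 -0.35), with class values of -0.40 to -0.18. The 54 Eif genes took 0.854% and 0.907% (log2 -0.09), lower in 10 classes and higher in microglia-like cells (0.04). The eEF1A genes took 0.299% and 0.401%. Without Eef1a1 the log2 ratio of the remaining members was -0.11 over these cells, with 0.00 in microglia-like cells. Without Eef1a1 and Eef2 it was -0.09, with 0.02 in microglia-like cells and intervals that spanned 0 in oligodendrocyte-like (-0.03, interval -0.09 to 0.02) and Schwann-like cells (-0.02, interval -0.05 to 0.01). Fibroblast-like cells went against this pattern. Leaving out Eef1a1 moved their ratio from -0.22 to -0.31, and their Eif genes (0.763% and 0.902%) differed by more than their Eef genes (0.782% and 0.892%). In erythroid-like cells the ratio was -0.17 without Eef1a1. Ribosomal proteins were higher in 10 classes and lower in COP-like cells, with log2 ratios of -0.01 to 0.17. Clusters high in ribosomal protein UMIs had been left out beforehand, 1340 cells labelled Con and 0 labelled SMA. A comparison with those cells kept was not made.

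**Figure D1:**
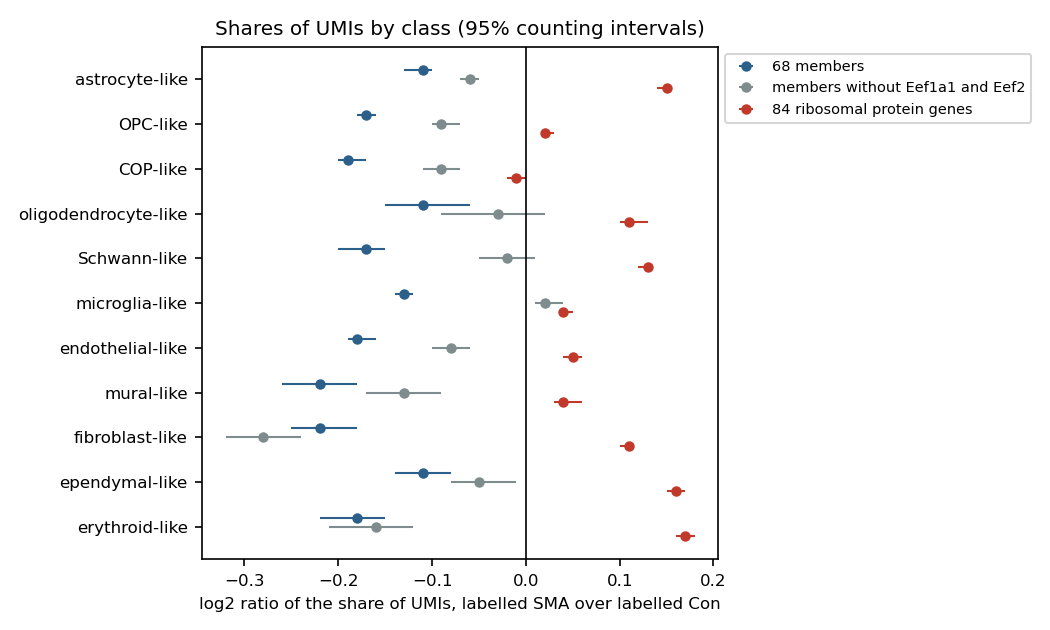
Log2 ratio of the share of UMIs, library labelled SMA over library labelled Con (x axis), in each of 11 cell classes (y axis), for the 68 members, the members without Eef1a1 and Eef2, and 84 ribosomal protein genes, with 95% counting intervals as bars. The member points lie between -0.22 and -0.11, left of 0 in every class, and the ribosomal protein points lie between -0.01 and 0.17.

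The member share also moved with the shared barcodes. It was 1.35% in SMA-labelled cells whose barcode was not shared and 1.56% in those whose barcode was shared, against 1.58% and 1.53% in Con-labelled cells with unshared and shared barcodes. With the shared barcodes left out of both libraries the log2 ratio was -0.23, but by class it stood at 0.00 in astrocyte-like, -0.02 in mural-like and -0.07 in endothelial-like cells, among 9 classes left to compare. It stood at -0.23 in microglia-like, -0.29 in fibroblast-like and -1.76 in erythroid-like cells, and in the last class the median of all genes stood at -1.68. Of the 1736 Con-labelled cells left outside the erythroid-like class, 439 were fibroblast-like. With Con cells limited to those with a Y-gene UMI and no Xist UMI the log2 ratio of the summed member share was -0.25. Haemoglobin, at -6.20 to 1.44 by class, was lower in 9 classes, and with haemoglobin and mitochondrial UMIs taken out of the total the log2 ratio was -0.20. All classes come from the same pair of libraries, so agreement over classes is not replication.

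Gene by gene, the mean log2 ratios were small for most members, with the lowest in Eef2, Eif3d, Eef1g and Eef1a1. Of 31 members compared in all 11 classes, Eef1a1, Eef2, Eef1g and Eif3d were lower in every class, and 0 were higher in every class. Among all 1496 genes compared in 11 classes, 4.55% were lower and 10.1% were higher in every class. Of the 50 members compared in 6 or more classes, 38 had a mean log2 ratio below 0 (median -0.09), against 2383 of 4528 genes (median -0.01). With 100 UMIs required in a class, 17 of 544 pairs of a member and a class stood past 1.5-fold and lower (3.12%) and 3 stood past it and higher (0.551%), while 4.30% and 3.90% of 63840 gene-class pairs stood lower and higher. The share of lower pairs thus stood near that of all genes, which were not matched to the members for UMIs. With a minimum of 300 UMIs it was 2.31% against 2.63%. Its order turned with each cell weighted equally (5.70% against 5.43%) and with the shared barcodes left out of both libraries (14.1% against 11.3%). The share of higher pairs was far below that of all genes, and 9 of the 17 lower pairs were in fibroblast-like cells.

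**Figure D2:**
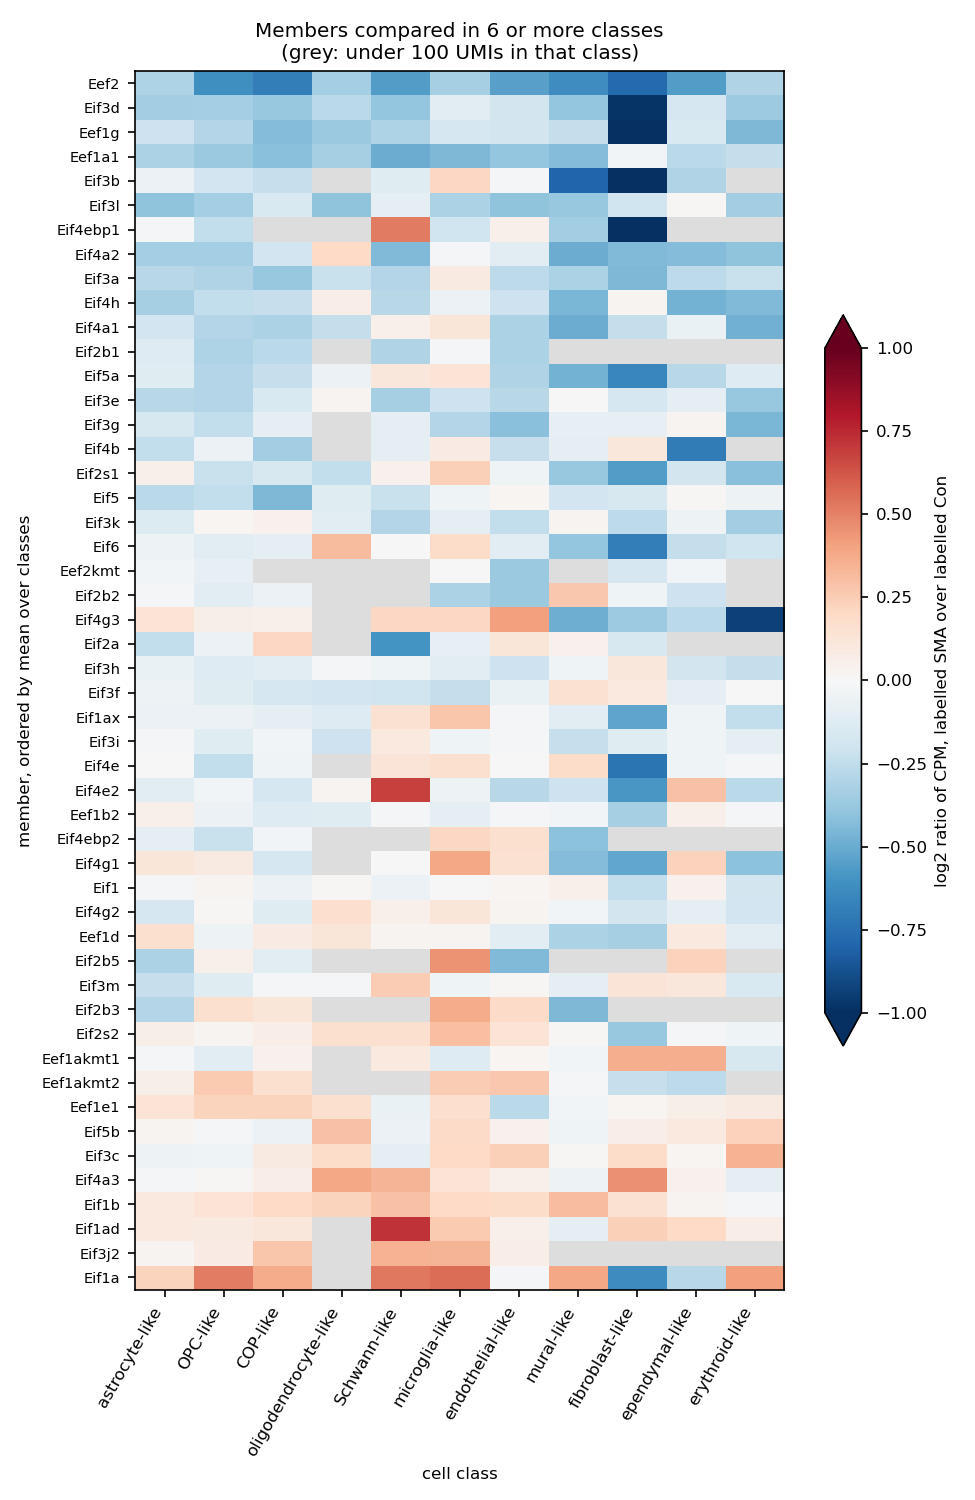
Log2 ratio of CPM, library labelled SMA over library labelled Con (colour), for the members compared in 6 or more of the 11 cell classes (rows, ordered by their mean; columns are classes; grey marks under 100 UMIs). Eef2, Eif3d, Eef1g and Eef1a1 are at the low end of the order and below 0 in every class, and Eif1a, Eif3j2, Eif1ad and Eif1b are at the high end.

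eEF1A is the most abundant elongation factor, and its main gene Eef1a1 (chromosome 9, 78478449 to 78489151, minus strand, GENCODE coordinates on GRCm38) gave more UMIs than any other member, 117403 and 190299. In the glial lineage Eef1a1 stood at 1740 and 2165 CPM in astrocyte-like cells, 3107 and 4014 in OPC-like, 3337 and 4475 in COP-like and 2406 and 3031 in oligodendrocyte-like cells, with the library labelled SMA given first here and below. Outside it the gene stood at 4344 and 6152 CPM in Schwann-like, 3812 and 5191 in microglia-like, 3385 and 4444 in endothelial-like, 3220 and 4342 in mural-like, 5382 and 5484 in fibroblast-like, 2202 and 2660 in ependymal-like and 454 and 536 in erythroid-like cells. The SMA-labelled value was the lower of each pair, and the interval lay below 0 in 10 of the 11 classes, the exception being fibroblast-like cells (log2 -0.03). Erythroid-like cells turned to 0.05 with the shared barcodes kept, and fibroblast-like cells to 0.03 with each cell weighted equally. With a mitochondrial limit of 5% endothelial-like cells stood at -0.05. The largest difference was in Schwann-like cells (log2 -0.50) and the mean over classes was -0.34, which 5.37% of 4528 genes went below. Erythroid-like values are low for all members, and haemoglobin took 83.0% and 82.6% of UMIs there. With Con cells limited to those with a Y-gene UMI and no Xist UMI, Eef1a1 was lower in 7 of 7 classes (mean -0.40). With the shared barcodes left out of both libraries it stood at -0.10 in astrocyte-like, -0.03 in mural-like and 0.07 in fibroblast-like cells, and at -0.58 in microglia-like cells. In the classes given as levels Eef1a1 stood at 3620 and 4859 CPM in neuron-like cells and at 4288 and 4356 CPM in macrophage-like cells. Eef1a1 has many processed pseudogenes, and reads shared with them could be split or dropped in counting.

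eEF2, the translocase, showed the largest mean difference of the members. Eef2 (chromosome 10, 81176631 to 81182498, plus strand) stood at 283 and 352 CPM in astrocyte-like, 405 and 620 in OPC-like, 430 and 695 in COP-like, 349 and 443 in oligodendrocyte-like, 643 and 947 in Schwann-like and 548 and 692 in microglia-like cells. It stood at 418 and 609 CPM in endothelial-like, 379 and 582 in mural-like, 422 and 726 in fibroblast-like, 238 and 350 in ependymal-like and 62.7 and 77.2 in erythroid-like cells. The SMA-labelled value was lower in 11 of 11 classes with every interval below 0. The mean log2 ratio was -0.51, and 1.08% of 4528 genes had a lower mean. With the shared barcodes kept the mean was -0.34 and erythroid-like cells turned to 0.03. They also turned at Louvain resolution 2, to 0.09. Eef2 passed 1.5-fold in OPC-like (log2 -0.61, interval -0.67 to -0.56), COP-like (-0.69), mural-like (-0.62) and fibroblast-like (-0.78) cells. With the shared barcodes kept in both libraries it no longer passed in OPC-like (-0.54), COP-like (-0.44) and mural-like (-0.28) cells. Nor did it pass in fibroblast-like cells without a cluster held by Con alone, described further on. With the shared barcodes left out of both libraries Eef2 stood at -0.58 in OPC-like, -0.17 in mural-like and -0.07 in astrocyte-like cells. With Con cells limited by Y-gene and Xist UMIs in the same way it was lower in 7 of 7 classes (mean -0.56). The kinase that inhibits eEF2, Eef2k, had 100 UMIs in 4 classes, and stood at 35.2 and 34.4 CPM in astrocyte-like cells and at 36.3 and 53.5 CPM in ependymal-like cells. In neuron-like cells Eef2 stood at 460 and 649 CPM, and in macrophage-like cells, with 30 and 60 cells, the order was the other way at 584 and 465 CPM.

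**Figure D3:**
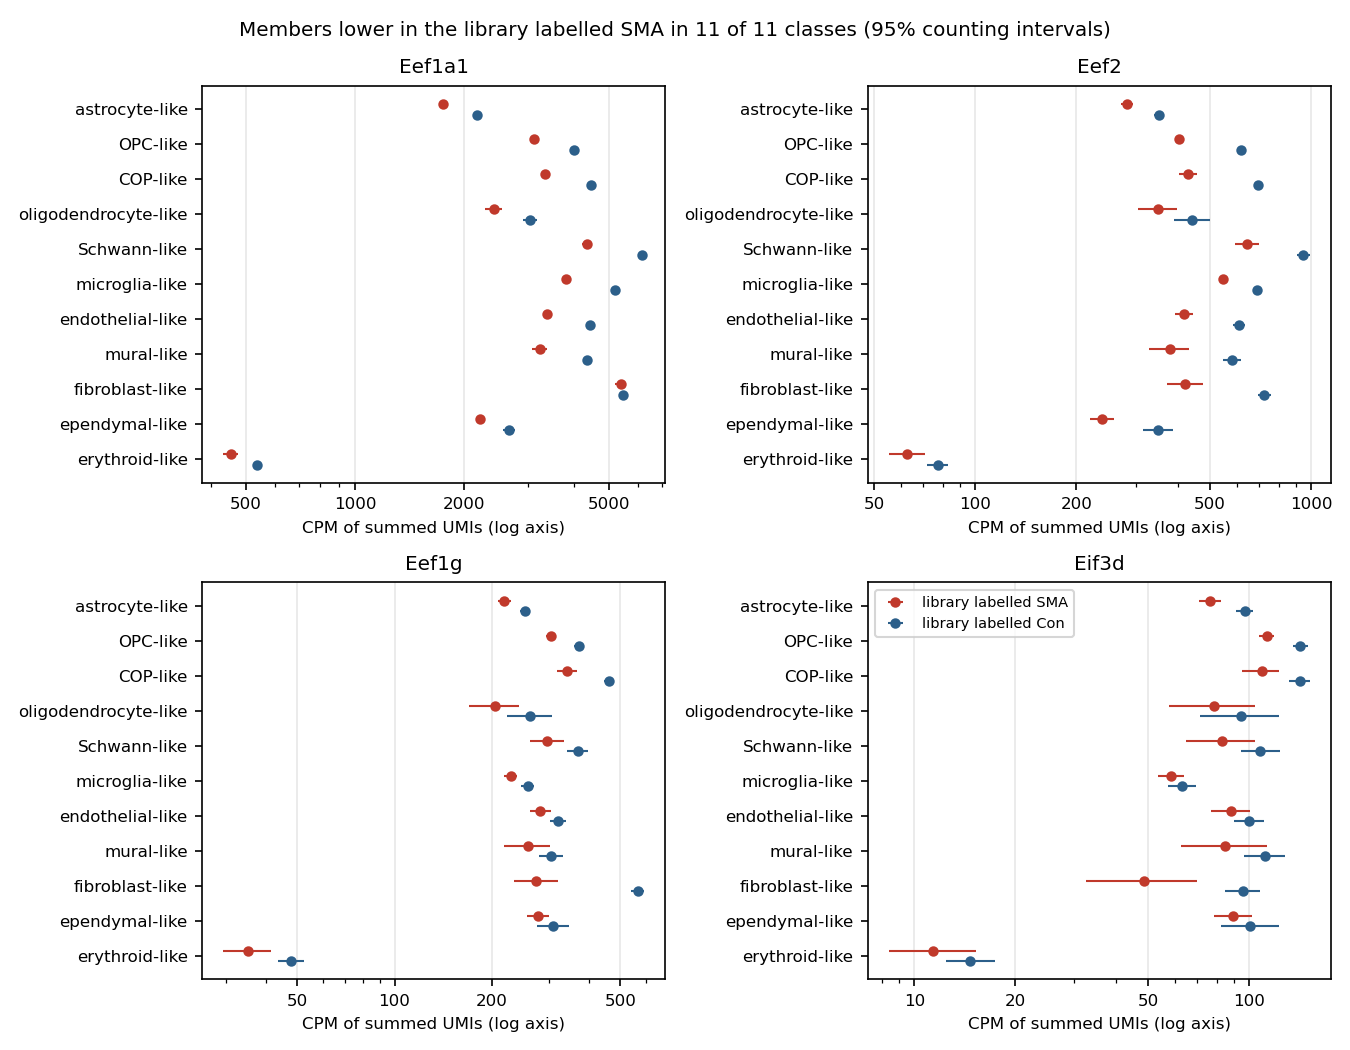
CPM of summed UMIs (x axis, logarithmic) of Eef1a1, Eef2, Eef1g and Eif3d in the 11 classes compared (y axis), in the library labelled SMA (red) and the library labelled Con (blue), with 95% Poisson intervals as bars. In every class the red point lies left of the blue point. For Eef2 the OPC-like points are at 405 and 620 CPM, and for Eef1a1 the fibroblast-like points nearly coincide at 5382 and 5484 CPM.

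The eEF1B complex, which reloads eEF1A with GTP, was not uniform. Eef1g, its scaffold subunit (chromosome 19, 8967041 to 8978479), was lower in 11 of 11 classes with a mean of -0.35, and 4.97% of genes had a lower mean. The mean was -0.22 with the shared barcodes kept, and -0.14 with a mitochondrial limit of 5%, where Eef1g was higher in astrocyte-like (0.12) and microglia-like cells (0.06) among 6 classes. It stood at 305 and 372 CPM in OPC-like, 342 and 461 in COP-like and 230 and 259 in microglia-like cells. Its largest difference, 275 and 566 CPM in fibroblast-like cells (log2 -1.04), rested on a Con-only cluster described further on. The catalytic subunits moved less. Eef1b2 was lower in 9 classes with a mean of -0.06, and stood at 734 and 762 CPM in OPC-like cells. Eef1d was higher in 6 classes and lower in 5 with a mean of -0.04, from 0.16 in astrocyte-like to -0.33 in fibroblast-like cells. Eef1e1, which is also known as a component of the tRNA synthetase complex, was higher in 8 of 11 classes with a mean of 0.06. eIF5A carries the hypusine residue and acts during elongation and termination. Its main gene Eif5a was lower in 9 of 11 classes (mean -0.21) with 7 intervals below 0, and its lowest ratio was in fibroblast-like cells (log2 -0.65). It stood at 648 and 897 CPM in mural-like cells and, the other way, at 564 and 511 CPM in microglia-like cells.

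eIF3, the large scaffold of initiation, is encoded here by 14 members. Its summed share was lower in 11 of 11 classes, in a narrow band of -0.15 to -0.06, but its subunits did not move as a block. Eif3d, the subunit with cap-binding activity (chromosome 15, 77958998 to 77970813), was lower in every class with a mean of -0.36. With the shared barcodes kept the mean was -0.20 and erythroid-like cells stood at 0.08, and with Con cells limited by Y-gene and Xist UMIs microglia-like cells stood at 0.07. It stood at 113 and 142 CPM in OPC-like, 76.4 and 97.0 in astrocyte-like and 58.4 and 63.1 in microglia-like cells, and 4.51% of genes had a lower mean. Eif3b had a mean of -0.29 and Eif3l of -0.28, which were -0.08 and -0.13 with the shared barcodes kept. The Eif3b mean was also -0.19 without the fibroblast-like cluster held by Con alone and -0.09 with the limited Con cells. Eif3l was lower in 10 of 11 classes and stood at 76.2 and 101 CPM in astrocyte-like cells. Eif3b was lower in 8 of 9 classes and passed 1.5-fold in mural-like cells at 37.2 and 64.1 CPM. The subunits with most UMIs, Eif3f, Eif3h and Eif3i, had means of -0.08, -0.09 and -0.07. Eif3f, whose start window holds the pyrimidine run, stood at 547 and 595 CPM in OPC-like cells and at 569 and 669 CPM in microglia-like cells. Against this direction Eif3c was higher in 8 of 11 classes (mean 0.10), and Eif3j2 was higher in 6 of 6 (mean 0.19). Its near-identical partner Eif3j1 was higher in 4 of 4, with 13.4 and 8.77 CPM in microglia-like cells (log2 0.61, but -0.01 with Con cells limited by Y-gene and Xist UMIs), and reads of Eif3j1 and Eif3j2 may be split between them. Eif3c, Eif3j1 and Eif3j2 were chosen after their values were seen.

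Summed over named cells other than erythroid-like ones, the factors of start codon selection took 0.304% of UMIs in each library. Class log2 ratios of this share ran from -0.22 to 0.05. Eif1, which keeps the ribosome scanning until it meets a start codon, held most of that share. It stood at 1688 and 1653 CPM in OPC-like cells, 1976 and 2054 CPM in COP-like cells and 2122 CPM in microglia-like cells of each library. Its mean log2 ratio was -0.04, with 6 classes higher and 5 lower. Its paralog Eif1b (chromosome 9, 120492232 to 120495330) was higher in 10 of 11 classes, with the interval above 0 in 7 and a mean of 0.16. Eif1b stood at 752 and 683 CPM in OPC-like, 1109 and 964 in COP-like, 393 and 321 in Schwann-like and 279 and 243 in microglia-like cells, and at 68.9 and 69.6 CPM in erythroid-like cells, the class where it was not higher. Among all genes 17.2% had a higher mean than Eif1b. Eif5, which triggers GTP hydrolysis on eIF2, was lower in 9 classes (mean -0.16), with 159 and 217 CPM in COP-like cells and 247 and 298 CPM in astrocyte-like cells. Eif1a was higher in 7 of 10 classes (mean 0.21) and its X-linked relative Eif1ax lower in 9 of 11 (mean -0.08). They encode near-identical proteins, so reads may be split between them, and both were named after their values were seen. Eif1ad, a protein with an eIF1A domain, passed 1.5-fold in Schwann-like cells at 68.2 and 41.3 CPM (log2 0.72).

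eIF2 and its controllers showed no common direction. Eif2s2, the beta subunit, was higher in 8 of 11 classes (mean 0.04) with 219 and 177 CPM in microglia-like cells. Eif2s1, the alpha subunit that the stress kinases phosphorylate, was lower in 8 of 11 (mean -0.17), with 108 and 125 CPM in OPC-like cells and 92.6 and 78.6 CPM in microglia-like cells. Eif2a, which can deliver initiator tRNA apart from eIF2, had a mean of -0.10 and stood at 31.3 and 47.4 CPM in Schwann-like cells. The exchange factor eIF2B took 0.0165% and 0.0177% of UMIs (log2 -0.10). Of its subunits with most UMIs, Eif2b2 was lower in 7 of 8 classes (mean -0.11), Eif2b5 was higher in 3 of 6 (mean -0.02) and Eif2b3 was higher in 4 of 6 (mean 0.02). The kinases were sparse. Eif2ak1 (HRI, the haem-regulated kinase) was lower in 4 of 4 classes, at 19.8 and 26.3 CPM in OPC-like cells. Eif2ak3 (PERK, the kinase of the endoplasmic reticulum) reached 100 UMIs in 3 classes at 10.1 and 10.7 CPM in OPC-like cells. Eif2ak2 (PKR, the kinase that senses double-stranded RNA) is described with the classes.

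The cap-binding group and its scaffolds varied among classes more than between libraries. Eif4e, the cap-binding protein, was equal in astrocyte-like cells at 111 CPM in each library and lower in OPC-like cells at 145 and 172 CPM (log2 -0.25). Eif4e2, a cap-binding repressor, passed 1.5-fold higher in Schwann-like cells at 122 and 76.1 CPM (log2 0.68). It stood at -0.58 in fibroblast-like cells, and its mean was -0.06. The binding proteins that sequester eIF4E when mTORC1 is off differed by class. Eif4ebp2 stood at 59.7 and 69.5 CPM in OPC-like and 51.3 and 44.3 CPM in microglia-like cells. Eif4ebp1 had a mean of -0.28 that rested on fibroblast-like cells (73.7 and 240 CPM) and was -0.11 without the cluster held by Con alone, and it was higher in Schwann-like cells at 103 and 71.6 CPM. Of the scaffolds, Eif4g2, which lacks the eIF4E site, was higher in 5 and lower in 6 classes (mean -0.04). Eif4g1 had a mean of -0.06 and Eif4g3 of -0.10. Eif4g1 stood at 89.0 and 67.7 CPM in microglia-like cells and Eif4g3 at 4.73 and 9.01 CPM in erythroid-like cells.

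The helicases of the leader were lower in most classes. Eif4a1, the main helicase of initiation, was lower in 9 of 11 classes (mean -0.23) with 8 intervals below 0, at 692 and 847 CPM in OPC-like and 1095 and 1369 CPM in COP-like cells. It was higher in microglia-like cells at 1052 and 968 CPM. Eif4a2 was lower in 10 of 11 (mean -0.27), at 114 and 144 CPM in OPC-like cells. Eif4a3, which sits on spliced messages and not on the cap, was higher in 8 of 11 (mean 0.12). The helicase partners Eif4h and Eif4b were lower in 9 of 11 classes (mean -0.24) and 7 of 9 classes (mean -0.18). Eif4h stood at 150 and 178 CPM in OPC-like cells, and Eif4b passed 1.5-fold in ependymal-like cells at 35.9 and 58.4 CPM. Eif6, which keeps the large ribosomal subunit from joining early, had a mean of -0.12, at 134 and 144 CPM in OPC-like cells. Of the methyltransferases, Eef1akmt1 and Eef1akmt2 had means of 0.04 and 0.06, and Eef2kmt had a mean of -0.11.

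Class by class the calls past 1.5-fold were few. In OPC-like cells 1 of 64 members (Eef2) was past the fold and lower, where 1.48% of genes were. In COP-like cells it was 1 of 55 (Eef2; 2.21% of genes), in microglia-like cells 1 of 61 lower (Eif2d, at 7.87 and 12.6 CPM; 1.01%) and 1 higher (Eif3j1; 3.96%), and in mural-like cells 2 of 46 lower (Eef2 and Eif3b; 6.44%). In Schwann-like cells 2 of 44 were higher (6.07% of genes) and 1 was lower (Eif2a; 4.66%). In ependymal-like cells 1 of 45 was lower (Eif4b; 2.53%), and in erythroid-like cells 1 of 38 (Eif4g3; 9.61%). Several of these calls were lost under an alternative. With the shared barcodes kept, Eif2d (-0.54), Eif3j1 (0.55), Eif3b in mural-like cells (-0.53) and Eif4g3 (-0.09) no longer passed, nor did Eef2 in the OPC-, COP- and mural-like classes. With the limited Con cells 0 of 57 members passed in microglia-like cells, and 1 of 40 was higher and 0 lower in Schwann-like cells. With cells of 2000 or more UMIs, and at the finer clustering, 0 of 36 members were lower in erythroid-like cells. In astrocyte-, oligodendrocyte- and endothelial-like cells 0 of 61, 0 of 31 and 0 of 54 members passed in either direction, where 3.15%, 4.16% and 4.88% of genes were lower and 1.92%, 5.62% and 4.25% were higher. No member of the OPC-, COP-, mural-, ependymal- or erythroid-like classes was past the fold and higher, where 1.73%, 3.75%, 4.90%, 2.21% and 2.42% of genes were. The median member stood below the median gene in 9 classes, as in COP-like (-0.09 and 0.04) and fibroblast-like cells (-0.23 and -0.01), stood at the same value in astrocyte-like cells (-0.06) and above it in microglia-like cells (0.08 and 0.07).

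Fibroblast-like cells had the most members past the fold, 9 of 45 lower (Eef2, Eef1g, Eif3b, Eif3d, Eif4e, Eif4ebp1, Eif5a, Eif6 and Eif1a), where 21.0% of genes were lower and 13.8% higher. That class held 64 cells labelled SMA and 600 labelled Con, and a cluster of 433 of these Con cells had no cell labelled SMA. Without that cluster 2 of 38 members were lower (13.7% of 2691 genes) and 0 higher (9.25%), and the log2 ratios of several of these members were nearer 0, at -0.33 for Eef2, -0.47 for Eef1g, -0.51 for Eif4ebp1 and -0.32 for Eif5a. Eif3d stood at -0.76 there, and others moved away from 0, Eef1a1 from -0.03 to -0.12 and Eif4a2 to -0.80. Makeup of the class and level within a cell type cannot be told apart for this class with the cluster included.

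Levels differed far more between cell classes than between libraries for a few members. For each class the member was picked by the lower of its folds in the libraries, so being high in both was part of the choice. The following folds set a class against the median of the other 12 classes. Eif4ebp1, the mTORC1-controlled inhibitor of eIF4E, stood high in the cells of nerve, vessels and meninges, at 7.78- and 4.50-fold in Schwann-like, 6.43- and 6.81-fold in mural-like, 3.99- and 3.21-fold in endothelial-like and 5.57- and 15.1-fold in fibroblast-like cells. Without the cluster held by Con alone the last value was 6.59-fold (105 CPM). It stood at 98.7 and 101 CPM in macrophage-like cells, at 13.7 and 16.4 CPM in OPC-like cells and at 2.79 and 2.92 CPM in ependymal-like cells. Eif1b stood 3.94- and 3.70-fold above the median in COP-like cells, the committed precursors that are about to make myelin. Eef1e1 followed the same lineage, at 159 and 136 CPM in OPC-like, 222 and 191 in COP-like and 109 and 97.9 in oligodendrocyte-like cells, and at 34.5 and 41.5 CPM in endothelial-like cells.

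Eif2ak2, the antiviral kinase that interferon induces, stood high in microglia-like (29.3 and 27.0 CPM, 2.94- and 2.49-fold), astrocyte-like (23.9 and 22.2 CPM) and endothelial-like cells (25.1 and 22.1 CPM). It stood at 9.26 and 10.1 CPM in OPC-like and 5.24 and 4.58 CPM in COP-like cells, and in the Con-labelled library alone it reached 27.9 CPM in fibroblast-like cells. Eef2kmt stood at 74.6 and 75.9 CPM in ependymal-like cells, 3.73- and 2.85-fold, and at 14.4 and 15.2 CPM in OPC-like cells. Ependymal-like cells were also low for Eif4a1, at 236 and 248 CPM, and high for Eif5, at 342 and 340 CPM. Eif4a1 stood 1.41- and 1.25-fold above the median in macrophage-like cells. Eif5 was the member that fell least below the median in erythroid-like cells, at 0.583 and 0.537 of it.

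**Figure D4:**
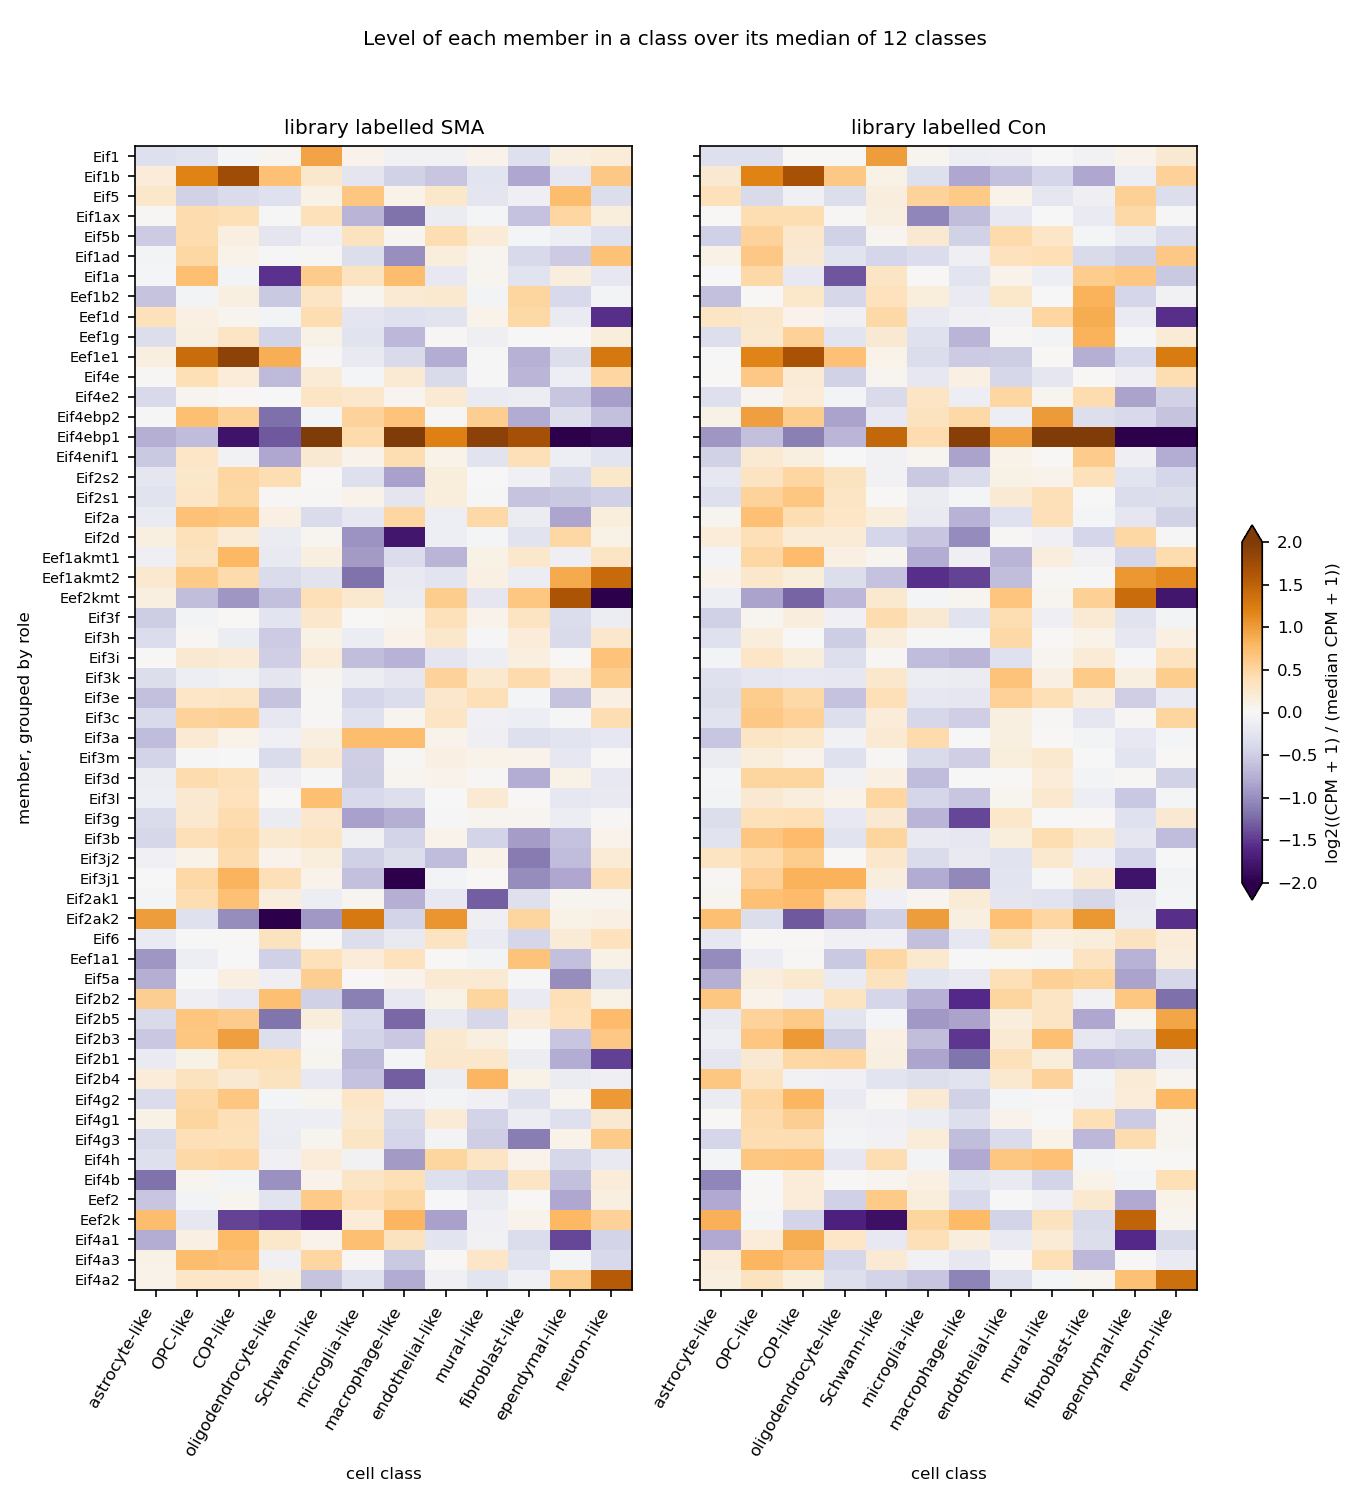
Level of the 57 members with 1000 or more UMIs (rows, grouped by role) in each of 12 classes without erythroid-like cells (columns), as log2 of CPM plus 1 over the member's median across the classes (colour), for each library. Eif4ebp1 in Schwann-, mural- and fibroblast-like cells and Eif4a2 in neuron-like cells stand out in both panels, and were picked for a high level in both libraries.

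Paralogs of a factor were used in different proportions by different cells. Eef1a2 is the form of eEF1A that replaces Eef1a1 in mature neurons and muscle. It made up 1.58% (interval 1.00 to 2.36) and 1.46% (0.882 to 2.27) of the pair's UMIs in neuron-like cells, 0.166% and 0.189% in OPC-like cells and 0.0322% and 0.0327% in microglia-like cells. In Schwann-like cells it had 0 of 3883 and 0 of 12203 UMIs, with upper limits of 0.0773% and 0.0246%. Its CPM of 58.1 and 72.1 in neuron-like and of 5.16 and 7.62 in OPC-like cells gave the same order. Eef1a1 remained the form with most UMIs in neuron-like cells of this age.

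Eif1b made up 35.9% (34.8 to 37.1) and 31.9% (31.2 to 32.6) of Eif1 and Eif1b UMIs in COP-like cells and 30.8% and 29.2% in OPC-like cells. It then made up 20.6% and 18.3% in oligodendrocyte-like, 18.5% and 17.4% in astrocyte-like and 18.3% and 15.4% in neuron-like cells, and 9.11% and 7.26% in Schwann-like cells. The precursors of the oligodendrocyte lineage thus held the highest shares of the 13 classes, and Schwann-like cells the lowest, with intervals that overlapped those of fibroblast-like (10.2% and 7.88%) and macrophage-like cells (10.9% and 8.17%). Neighbours in this order whose intervals overlapped in each library were the oligodendrocyte-, astrocyte- and neuron-like classes. The share was higher in the library labelled SMA in each of these 6 classes, with overlapping intervals in the oligodendrocyte- and neuron-like ones.

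Eif4a2 made up 37.3% and 43.2% of Eif4a1 and Eif4a2 UMIs in ependymal-like cells and 37.3% and 34.2% in neuron-like cells. In astrocyte-like cells it was 20.9% and 22.6%, in OPC-like cells 14.1% and 14.5%, in COP-like cells 9.39% and 8.64%, and in microglia-like cells 6.74% and 7.31%. The ependymal- and neuron-like intervals overlapped each other in both libraries and lay above those of all other classes. Eif4e3, a cap-binding protein with an unusual cap pocket, made up 16.5% (10.7 to 24.0) and 16.9% (13.5 to 20.8) of the Eif4e family's UMIs in mural-like cells, at 39.0 and 40.3 CPM. In OPC-like cells its share was 1.38% and 0.983%, and in astrocyte-like cells 0.305% and 0.143%. Eif4e2 took 51.1% and 55.1% of the family in microglia-like cells and 25.3% and 31.7% in neuron-like cells. Eif4g2 took from 57.5% in astrocyte-like cells labelled SMA to 73.0% in neuron-like cells labelled Con of the scaffold UMIs. Eif5a2 stayed at or below 2.17% of Eif5a and Eif5a2 in all classes, with 1.86% and 1.29% in Schwann-like cells.

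**Figure D5:**
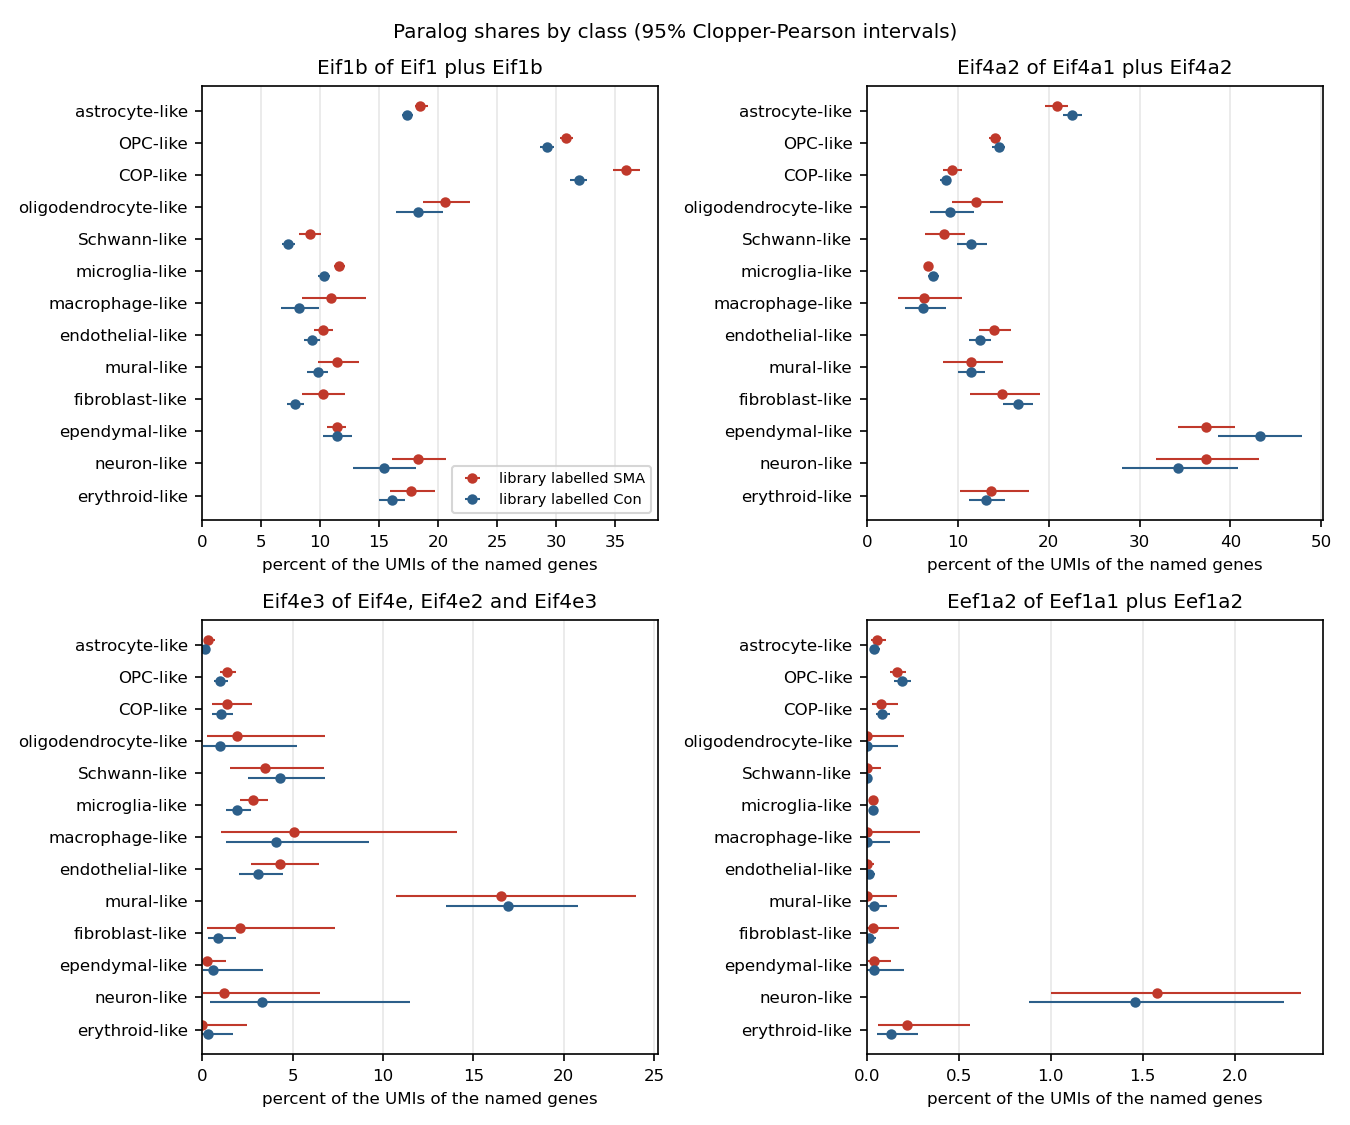
Share of the named genes' UMIs taken by Eif1b, Eif4a2, Eif4e3 and Eef1a2 (x axis, percent) in 13 classes (y axis), in the library labelled SMA (red) and the library labelled Con (blue), with 95% Clopper-Pearson intervals. Eif1b is highest in COP-like cells (35.9% and 31.9%), Eif4a2 in ependymal- and neuron-like cells, Eif4e3 in mural-like cells and Eef1a2 in neuron-like cells.

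Dividing precursors held a slightly smaller share of translation factor message in sum. Eef1a1 carried much of that difference, and members moved in both directions. OPC-like cells were called cycling at 2 or more UMIs of division genes after thinning each cell to 1000 UMIs, which gave 451 cycling and 1507 other cells (23.0%) under the SMA label and 434 and 1260 (25.6%) under the Con label. The members took 1.42% of UMIs in cycling and 1.48% in other cells of the SMA-labelled library, and 1.61% and 1.66% in the Con-labelled library. Ribosomal proteins were also lower in cycling cells, by log2 ratios of -0.13 and -0.09. Of 58 members compared, 20 (34.5%) were higher and 24 (41.4%) lower in cycling cells of both libraries, where 26.9% and 52.0% of 8795 genes were. The median member stood at -0.04 and 0.01, above the median gene at -0.11 and -0.10. Eif1ad was the member past 1.5-fold higher in both, where 5.40% of 8795 genes were, at 129 against 79.7 CPM and 117 against 75.5 CPM. Eef2kmt was the member past it lower in both, where 3.89% of genes were, at 9.45 against 16.3 CPM and 6.87 against 18.6 CPM. Among the others Eif4e was higher in cycling cells at 203 against 124 CPM (log2 0.71) and 209 against 156 CPM (log2 0.42), and Eif4a3 was higher by 0.33 and 0.41. Eef1a1 went the other way, at 2685 against 3265 CPM (log2 -0.28) and 3599 against 4188 CPM (log2 -0.22). So did Eef2 at -0.21 and -0.13, but Eef1b2 stood at 0.01 and 0.16. Eif3f was also lower in cycling cells, at -0.27 and -0.29. Eif4e, Eif4a3 and Eif3f were named here after their values in these cells were seen.

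Other genes of the pathway were examined as lists. Of 9 members known to have TOP messages, all 9 had a mean log2 ratio below 0 (median -0.18), and 6 of 97 pairs of gene and class (6.19%) were past 1.5-fold and lower and 0 higher, where 4.30% and 3.90% of all pairs were. Those 6 pairs came from 3 genes, Eef2 in 4 classes and Eef1g and Eif4b in 1 class each. Of the 6, Eef2 in OPC-, COP- and mural-like cells no longer passed with the shared barcodes kept, and Eef2 and Eef1g in fibroblast-like cells did not without the cluster held by Con alone. Of the ribosomal proteins, the other large TOP group, 54 of 81 had a mean above 0 (median 0.09), with 26 of 890 pairs higher (2.92%) and 0 lower. The other 27 had a mean below 0, and 5 of them, Rpl4 (-0.30), Rpl17 (-0.21), Rpl3 (-0.18), Rpl7a (-0.14) and Rpl10a (-0.13), picked after their values were seen, were lower in 11 of 11 classes. More of the list was higher in 11 of 11, with Rps27l (0.61), Rpl37 (0.53) and Rps21 (0.48) among them, also picked after their values were seen. Among all 1496 genes compared in 11 classes, 4.55% were lower and 10.1% higher in every class. Of the other initiation, recycling and release factors, 12 of 17 had a mean below 0 (median -0.09), with 7 of 165 pairs lower (4.24%) and 3 higher (1.82%). Tpt1, Rack1 and Pabpc1, the translationally controlled tumour protein, the ribosome-bound scaffold and the poly(A)-binding protein, were lower in 11 of 11 classes each, with means of -0.15, -0.31 and -0.42. Their messages are also known as TOP messages. Paip1, a partner of the poly(A)-binding protein chosen after its values were seen, was higher in 10 of 10 classes (mean 0.41).

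Genes of the mTORC1 pathway had 2 of 80 pairs higher (2.50%) and 2 lower (2.50%), against 3.90% and 4.30% of all pairs. Rheb, its activating GTPase, was higher in 10 of 11 classes (mean 0.25), Rraga, an amino acid sensing GTPase, in 9 of 11 (mean 0.16), and Lamtor1, its lysosomal anchor, in 3 of 11 (mean -0.10). Integrated stress response targets, which rise when eIF2 alpha is phosphorylated, had 10 of 98 pairs higher (10.2%) and 7 lower (7.14%), both above the shares of all pairs. Phgdh, the first enzyme of serine synthesis, had a mean of 0.04 and the transcription factor Atf4 of 0.08. Atf3, another transcription factor, was higher in 7 of 8 classes and stood at -2.53 in the other. Of the 7 targets compared in 6 or more classes, 6 had a mean above 0 (median 0.04). Message counts do not measure phosphorylation or protein synthesis.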

How the data were processed

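The deposited files held UMI counts per gene and cell barcode, 1 filtered matrix for each of 2 libraries, which the authors made with Cell Ranger (4.0.0 per the file headers, while the study's methods name another version) on mm10. Seurat 3.2.2 is named in the submitters' processing notes. The values were raw counts with no normalization. Strand use in counting is not given in the sources used here. The members and gene lists were chosen with earlier results of these data known.

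Barcodes with 200 to 4000 genes and under 10% mitochondrial UMIs were kept (13296 SMA, 10256 Con). The upper limit was the only treatment of doublets, and no caller was run. Con cells in clusters with over 30% ribosomal protein UMIs were left out (1340, and 0 SMA). The 6509 SMA barcodes also listed in Con took part in clustering and naming and were left out when UMIs were summed. Cells were clustered with scanpy 1.11.5 and igraph 0.11.9 (2000 variable genes without members, ribosomal, mitochondrial or listed genes, 30 components, 20 neighbours, Louvain resolution 1) and named "-like" from marker lists. Another 4 clusters stayed unnamed. UMIs were summed by library and class and given as CPM. Ratios carry exact conditional binomial intervals, levels Poisson intervals and shares Clopper-Pearson intervals (scipy 1.17.1). Pairs with 100 or more UMIs in both libraries together and at least 1 in each were compared, and past 1.5-fold (log2 0.58) counted as called. The scripts were tested on simulated data. edgeR 4.0.16 gave TMM factors for an alternative only. Gene positions came from GENCODE M21, start windows from RefSeq.

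Named members were the 3 with most UMIs in each role, the paralogs and the 8 with the largest mean ratio. For each class the member highest over the median of the other classes was also named, by the lower of its folds in the libraries. Lists were named by up to 3 genes with most UMIs. Genes outside this rule are marked or are among the called pairs. Alternatives were other scalings, filters, clusterings, UMI and fold limits, and treatments of the shared barcodes.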

Additional observations from a re-analysis of the deposited data

How the results depend on the processing

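No replicate was left out, since each group is 1 library. No paired analysis was possible because each group has 1 library and no test was made. Depth limits members under 100 UMIs in a class, which were not compared.

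The log2 ratio of the member share, -0.19 as reported, was -0.14 with the shared barcodes kept in both libraries and -0.14 with a mitochondrial limit of 5%. It was -0.22 centred on the median gene, -0.20 without haemoglobin and mitochondrial UMIs, -0.25 with Con cells limited to those with a Y-gene UMI and no Xist UMI, -0.18 without the fibroblast-like cluster held by Con alone, and -0.23 with the shared barcodes left out of both libraries. The last pair of settings was chosen after seeing the data. The number of classes with a higher share, 0 as reported, was 1 of 11 (erythroid-like) with the shared barcodes kept, 2 of the 6 classes left with the 5% limit (astrocyte-like 0.02, endothelial-like 0.01), 1 of 11 (erythroid-like) at Louvain resolution 2 and 1 of the 9 left with the shared barcodes out of both.

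The 3 higher and 17 lower of 544 pairs became 6 and 9 of 571 with the shared barcodes kept (3.20% and 2.38% of all gene-class pairs were higher and lower), 6 and 31 of 544 with each cell weighted equally (4.80% and 5.43%), 29 and 52 of 710 with no UMI minimum (16.1% and 13.6%), 0 and 9 of 390 with a minimum of 300 (2.33% and 2.63%) and 0 and 3 of 544 at 2-fold (0.832% and 1.20%). With the shared barcodes left out of both they were 17 and 51 of 362 (14.6% and 11.3%). Of these 51, 20 were in erythroid-like cells, where 91.3% of genes were lower, and 15 in fibroblast-like cells (30.1%). The lower pairs were 3 of 240 with the 5% limit (3.49%), 8 of 343 with the limited Con cells (3.97%) and 10 of 537 without the fibroblast-like cluster (3.63%). Eif3j1 in microglia-like cells reversed to -0.01 with the limited Con cells. Eef2 was lower in 10 of 11 classes with the shared barcodes kept (mean -0.34), as was Eef1a1 (mean -0.24), and with them left out of both Eef2 was lower in 9 of 9 (erythroid-like -1.73) and Eef1a1 in 8 of 9 (fibroblast-like 0.07). Eef2 was lower in 10 of 11 at Louvain resolution 2 and when clustered without the shared barcodes. The cause of these changes was not tested.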
